A study of Mus musculus with 9 samples.

Results

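The RNA described here was bound to tagged ribosomes of D1 medium spiny neurons from the dorsal striatum of control mice. The members were chosen by label alone, as the libraries titled D1-Cre-RT, and they are 3 of the 9 libraries of the series. All 3 came from C57BL/6 mice at postnatal day 28 that carried D1-Cre and RiboTag (RT), a ribosomal protein gene whose hemagglutinin (HA) tag is switched on by Cre. The other 6 libraries, whose genotype adds a floxed TrkB allele to the same pair of transgenes, were not used, and no group was compared with another. The libraries are named 1, 2 and 3 by the replicate number in their titles.

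Medium spiny neurons are the GABA-releasing output neurons of the striatum. Those of the direct pathway carry the dopamine D1 receptor and the peptides substance P and dynorphin, and project to the substantia nigra and the internal pallidum. Those of the indirect pathway carry the dopamine D2 receptor, the adenosine receptor coded by Adora2a and the peptide enkephalin. In the RiboTag method, Cre expressed from a cell type's own promoter tags ribosomes in that type, and an antibody to the tag pulls down polyribosomes with the mRNA they hold. The labels call the cells enriched, not purified, and describe the libraries as biological triplicates. The sources used here give neither the transgenic Cre line, the number of mice per library, their sex, nor a batch. No library of RNA before precipitation was used, so the values below are levels in the precipitate and not enrichments.

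Levels are in CPM, the reads of a gene scaled to the total of reads assigned to genes in its library. The totals were 36535817, 35346341 and 32615356 reads, so a gene with 0 reads could still have a level of 0.0821, 0.0849 and 0.0920 CPM (3 reads per library, counting error only). Where levels of different genes were compared, CPM was divided by the length of the gene's merged exons in kilobases (CPM per kb). Errors are SD over the 3 libraries (n = 3). Neighbours in an order of genes are said to overlap where the ranges of their 3 values overlap. Log2 levels correlated across genes at 0.976 for libraries 1 and 2, 0.982 for 1 and 3, and 0.968 for 2 and 3 (Pearson; genes are not independent replicates). The pairs differed by 58.0 to 99.5 in chi-square per degree of freedom, far beyond counting error, so each library was counted once. Xist stood at 0.0849 to 0.1226 CPM and the Y-linked Ddx3y at 64.9 to 78.8 CPM in all 3 libraries.

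Library 3 stood apart in named groups of genes before any result was drawn from the mean. Its summed D2 neuron markers were 1579 CPM, against 511 and 688 CPM in libraries 1 and 2. Its summed immediate early genes, which neuronal activity induces, were 3216 CPM against 1622 and 1563 CPM, a mean of 2134 CPM with library 3 and 1593 CPM without it. Library 2 was low in markers of cortical neurons and of interneurons, and library 1 was high in mitochondrially encoded mRNA. Means without library 3 are therefore given for the D1 markers and for the larger marker sums. Over all 8827 genes with a mean of at least 10 CPM, libraries 1, 2 and 3 held the highest value for 29.5%, 38.5% and 32.1% and the lowest for 31.0%, 37.2% and 31.8%, and counts of members are set beside these shares below.

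The dopamine D1 receptor gene Drd1 (ENSMUSG00000021478, GRCm38 chromosome 13, 54051183 to 54055705) stood at 866, 865 and 684 CPM in libraries 1, 2 and 3. The mean was 805 ± 105 CPM, and 865 CPM without library 3. Libraries 1 and 2 were nearly equal, and library 3 was the lowest. Ppp1r1b (DARPP-32, the protein that relays dopamine and cAMP signals to protein phosphatase) was the most abundant of the D1 list at 5278, 7387 and 4575 CPM. It is expressed by medium spiny neurons of both pathways, and 15.7% of its exon bases are shared with another annotated gene. Tac1, the precursor of substance P, stood at 800, 779 and 420.0 CPM, a mean of 667 CPM, and 789.9 CPM without library 3. Pdyn, the precursor of dynorphin, stood at 253, 261 and 153 CPM, a mean of 223 CPM, and 257 CPM without library 3. Both peptide precursors were lowest in library 3, which was 1.5-fold or more below each of the others.

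All 10 members of the D1 list were detected, meaning at least 1 CPM in all 3 libraries, as were 52.4% of all protein-coding genes. Counts of detected members below are to be read beside this 52.4%. The rest were Chrm4, the Gi-coupled muscarinic receptor M4 (178, 234 and 166 CPM), Slc35d3, a membrane protein that regulates trafficking of the D1 receptor (146, 93.7 and 105 CPM), Sfxn1, a mitochondrial serine carrier (230.2, 118 and 301 CPM), Isl1, a LIM-homeodomain factor of the direct pathway (36.0, 35.4 and 26.1 CPM), Ebf1 (49.1, 44.6 and 33.5 CPM) and Eya1 (17.5, 15.98 and 12.8 CPM). Library 3 held the lowest value for 8 of the 10 (31.8% of all genes), and Sfxn1 was the exception that was highest there. The median member of the list stood 0.42 lower in library 3 than in the mean of the other libraries on the log2 scale. Over all genes with a mean of at least 10 CPM the same median was -0.01. D2 markers were higher in the same library, and their part in the lower D1 markers was not tested. In bulk RNA, fewer D1 neurons and less RNA per D1 neuron cannot be told apart.

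**Figure D1:**
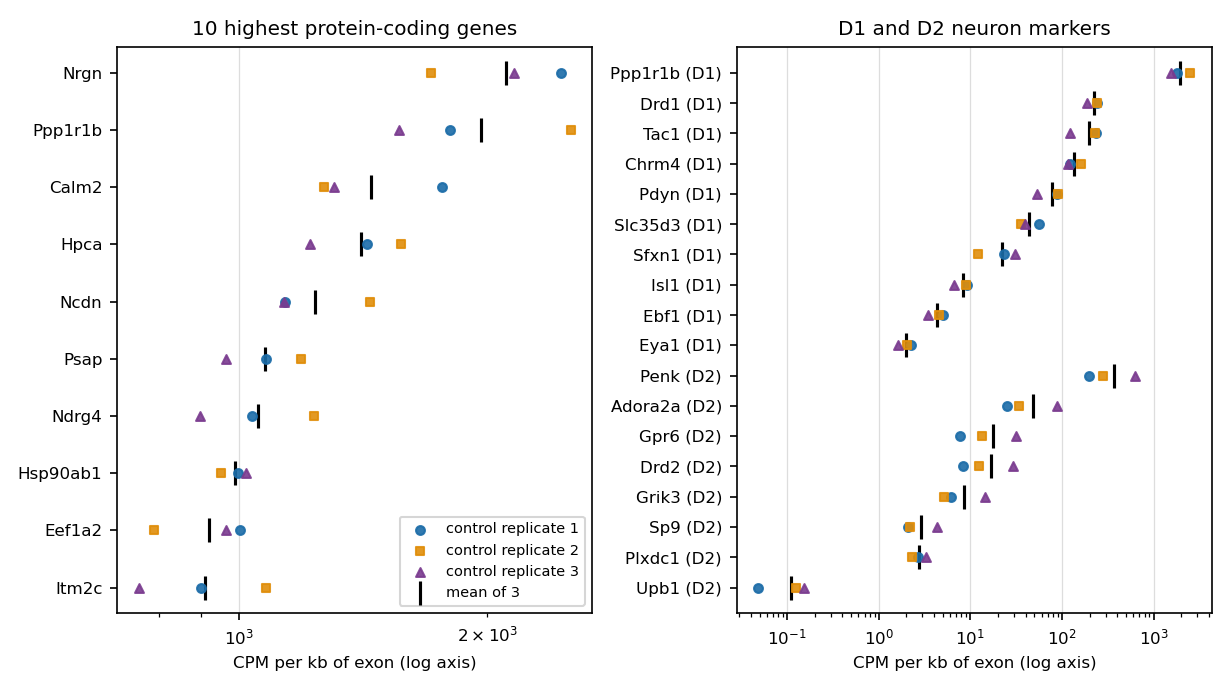
Levels of the 10 protein-coding genes highest per length (left) and of the D1 and D2 neuron marker lists (right), in CPM per kb of exon on log axes; points are the 3 control libraries and bars their mean. Library 3 (triangles) was lowest for 8 of 10 D1 markers and highest for all 8 D2 markers.

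Genes that medium spiny neurons of both pathways share were among the highest in the libraries. The 27 genes of that list summed to 34550, 36733 and 32437 CPM. Of them 26 were detected, and Rasgrp2 was listed at 0 CPM in all 3 libraries, a value whose limit is given below. The median coefficient of variation of the list (CV, the SD as a percent of the mean) was 10.6%. This was near the 11.5% of all genes with a mean of at least 10 CPM. Scn4b, the sodium channel beta4 subunit of resurgent current, stood at 3815, 4124 and 3346 CPM. Adcy5, the main striatal adenylyl cyclase, stood at 2401, 2408 and 2241 CPM, and Pde1b, a calcium-activated phosphodiesterase, at 2348, 2413 and 2167 CPM. These 3 genes differed little between libraries compared with the D2 or immediate early genes. Rgs4, a regulator of G-protein signalling, varied more, at 1714, 902 and 1397 CPM.

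Reads were spread over many genes. Of 47729 genes in the tables, 12615 (26.4%) were detected, and 11370 of these were among the 21697 protein-coding genes (52.4%). The 10 most abundant genes held 6.26% ± 0.457 of all reads, the top 100 held 20.7% ± 0.659 and the top 1000 held 55.4% ± 0.503 (SD, n = 3). Protein-coding genes took 94.9%, 95.5% and 95.4% of the reads. The highest single entry was the non-coding Gm42418 at 24832, 20198 and 21057 CPM. Of its exon bases, 99.5% are shared with other annotated genes, so its reads cannot be assigned to a single gene. AY036118 and CT010467.1 overlap Gm42418, and the share with each of them was not measured separately.

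Ppp3ca, the catalytic subunit of calcineurin, led the protein-coding genes by CPM with 7865, 5994 and 5479 CPM. Next came Ppp1r1b and Ndrg4, a membrane-associated protein of the brain (5071, 6023 and 4381 CPM). Ncdn, neurochondrin, stood at 4217, 5344 and 4208 CPM, and Hpca, the calcium sensor hippocalcin, at 4172, 4585 and 3556 CPM. Cplx2, complexin of the release machinery, was the steadiest of the top genes at 4081, 4178 and 4051 CPM, with a CV of 1.63%. Scn4b and the calcium pump Atp2b1 (3171 ± 311 CPM) were also among the first 15, as were Arf3 (3071 ± 101 CPM), Camk2a (3070 ± 227 CPM), Nrgn (3061 ± 548 CPM), Hsp90ab1 (2965 ± 102 CPM) and Camk2b (2960 ± 182 CPM). Camk2a and Camk2b code for the main subunits of calcium/calmodulin-dependent kinase II.

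Per length, Nrgn came first with 2459, 1708 and 2153 CPM per kb. It codes for neurogranin, a small calmodulin-binding protein of dendritic spines. Ppp1r1b was next at 1963 ± 499.8 CPM per kb and overlapped with it. Calm2 (1444 ± 276 CPM per kb), Hpca (1405 ± 177), Ncdn (1237 ± 176), Psap, the lysosomal prosaposin (1076 ± 111), Ndrg4 (1054 ± 169), Hsp90ab1 (989 ± 34.1), Eef1a2 (918 ± 115) and Itm2c (909.8 ± 161) followed, the unit being CPM per kb throughout. Neurons use Eef1a2 as their main form of elongation factor 1A. Its relative Eef1a1 stood at 315 ± 22.5 CPM per kb, a level to which the limit on reads with several matches, given below, may apply.

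Some transcripts that are abundant in brain were listed at or near 0, which limits how their levels can be read. The mitochondrial mRNAs mt-Co2 and mt-Atp6 were at 0 in all 3 libraries, whereas mt-Co1 stood at 480, 309 and 274 CPM. Gapdh stood at 34.8, 30.6 and 22.7 CPM and Tpt1, the translationally controlled tumor protein, at 1.97, 1.33 and 1.99 CPM. Among 85 genes of cytosolic ribosomal proteins the median was 6.39 CPM, and 53 were under 10 CPM. The highest of these by CPM were Rps3 (215, 235 and 233 CPM) and Rpl4 (218, 198 and 214 CPM). Near-identical pseudogenes exist for many of these genes, and processed pseudogenes held 1.59% ± 0.0141 of the reads. Whether reads with several matches were dropped is not given in the sources used here. Rasgrp2 and Ppp1ca were listed at 0 CPM in all 3 libraries too. For them, absence of RNA and loss of reads in processing cannot be told apart.

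The make-up of receptor families is given by their leading members. Shares below are of the family's total of mean CPM per kb. In all, 155 of 263 receptor genes listed were detected, or 58.9%, against 52.4% of all protein-coding genes.

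Drd1 held 92.6% of the dopamine receptor total and Drd2 7.0%. Drd2 stood at 21.3, 32.0 and 74.8 CPM, so that library 3 was more than 2-fold above both others. Per length, its level was 3.51%, 5.27% and 15.6% of that of Drd1. Drd3, Drd4 and Drd5 were not detected by the 1 CPM rule, the highest value among them being 2.94 CPM for Drd5 in library 3. Of the muscarinic receptors, Chrm4 held 71.5% and the Gq-coupled Chrm1 26.6%. Per kb, Chrm4 exceeded Chrm1 by 2.72-, 3.19- and 2.19-fold in the 3 libraries, although Chrm1 had more reads without length correction. Chrnb2 led the nicotinic subunits (58.0%), with 4 of 16 detected.

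The adenosine receptors were shared between Adora1, the Gi-coupled A1 receptor, and Adora2a, the Gs-coupled receptor of the indirect pathway. Adora1 was steady at 295, 313 and 327 CPM. Adora2a stood at 77.1, 104 and 267 CPM, and library 3 lay apart from the others. Their shares of 52.4% and 47.5% rest on library 3, since the 2 overlap per kb, and Adora2a led when library 1 or library 2 was left out. Of the serotonin receptors, Htr1b, which sits on striatal output terminals, led with 43.3%, ahead of Htr2c (18.3%), Htr6 (13.4%) and Htr1d (12.4%). Htr1b stood at 89.4, 81.7 and 112 CPM. Adra2c held 74.7% of the adrenergic total, at 139, 195 and 121 CPM.

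Opioid receptors were low. Oprl1, the nociceptin receptor, held 63.8% at 38.4, 45.4 and 35.5 CPM, and Oprk1, the receptor for dynorphin, held 25.3% at 41.5, 41.5 and 32.1 CPM. Oprd1 stood at 3.26, 3.48 and 12.7 CPM, again highest in library 3. Oprm1, a marker of striosomes, stood at 1.42, 1.75 and 1.66 CPM. The cannabinoid receptor gene Cnr1 was far higher at 563, 389 and 505 CPM, with Cnr2 under the limit of 3 reads. Mchr1, the receptor for melanin-concentrating hormone, led the peptide receptors with 44.4% (109, 133 and 95.05 CPM). Of 38 measured, 19 (50%) were detected, near the 52.4% of all protein-coding genes. Tacr1, the receptor for substance P, was high in library 3 alone (13.5, 12.6 and 38.1 CPM). Of 72 orphan receptors 41 (56.9%) were detected, also near that share.

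Glutamate receptors were led by Grm5, Gria1, Grin1 and Grik5 in their families. The group I metabotropic receptor Grm5 held 38.9% at 466, 313 and 415 CPM, and Grm4 held 16.2%. Gria1 held 47.7% of the AMPA total and Gria2, the subunit that keeps the channel closed to calcium, 36.9%. This order depends on length: with the longest transcript as length, or with no length correction, Gria2 led. Gria2 stood at 1363, 1124 and 1313 CPM and Gria1 at 579, 726 and 605 CPM. Grin1, the obligatory NMDA subunit, held 67.5%, Grin2b 25.2% and Grin2a 6.03%. The per-kb ratio of Grin2b to Grin2a was 4.23, 4.13 and 4.20, a mean of 4.19 ± 0.0521 (SD, n = 3). Grik5 held 77.6% of the kainate total at 286, 380 and 306 CPM. Grik3, which was on the D2 list, stood at 54.5, 46.2 and 129 CPM.

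Inhibitory receptors were led by Gabrd, the delta subunit of extrasynaptic GABA-A receptors, with 34.4% of its family (310.1, 327 and 242 CPM). Gabra4 held 13.3% and Gabra2 11.4%. Gabbr1 held 89.7% of the GABA-B total, at 1200, 1270 and 1182 CPM, and its partner Gabbr2 stood at 105, 89.0 and 166 CPM. Glrb held 83.7% of the glycine receptor total.

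Among neurotrophin receptors, Sort1, a sorting receptor that binds proneurotrophins, held 65.8% at 480, 544 and 417 CPM. Ntrk2, the gene of the BDNF receptor TrkB, held 21.3% and stood at 319, 385 and 487 CPM, highest in library 3. Ntrk3 held 10.7%, whereas Ngfr (1.01, 0.538 and 1.04 CPM) was low. Bdnf itself stood at 9.25, 2.12 and 13.7 CPM. Tyro3, a receptor of the TAM family, led the other receptor tyrosine kinases with 50.8% (251, 346 and 275 CPM), with 20 of 37 detected.

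Of 200 ion channel genes listed, 130 (65.0%) were detected, against 52.4% of all protein-coding genes. Scn2a (40.3%) and Scn8a (39.9%) carried the sodium channel pore total between them and overlapped per kb, and Scn8a led without library 1, without library 3, or with no length correction. Scn8a was steady at 465, 461 and 448 CPM. Their auxiliary subunit Scn4b exceeded every pore subunit by far: per kb it was 24.2, 33.0 and 21.5 times the level of Scn2a. Of the calcium channel pores, the T-type Cacna1i led with 34.7% (264, 281 and 272 CPM), ahead of Cacna1h (15.1%) and the R-type Cacna1e (14.7%), which overlapped. By CPM, Cacna1e was the higher of these. Among calcium channel auxiliary subunits Cacnb1 (20.5%) and Cacng4 (19.9%) overlapped, and with the longest transcript as length, or no length correction, Cacna2d3 led.

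Voltage-gated potassium channels were shared more evenly than the other receptor and channel families, whose leaders each held at least 20.5%. Of 40 voltage-gated pore subunits 32 were detected, and the leader Kcnd2, of the A-type current, held 12.7%. Kcnd2 stood at 346, 224 and 281 CPM. Kcnh3 followed with 10.02% and overlapped, and led when length was that of the longest transcript. Without length correction neither led. Kcnip2, the auxiliary subunit that partners Kcnd channels, led its own family with 37.8% (517, 536 and 389 CPM), and Kcnab1 led it with no length correction. The inward rectifiers, by contrast, were dominated by Kcnj4 (80.5%), at 425, 625 and 400 CPM. Kcnk2 (45.7%) and Kcnk1 (45.0%) shared the tandem-pore family and overlapped, with Kcnk1 ahead when library 1 or library 2 was left out. Kcnt1, a sodium-activated channel, held 44.9% of the calcium- and sodium-activated family.

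Hcn2 held 94.4% of the HCN total at 132, 119 and 130.00 CPM. Itpr1, the inositol trisphosphate receptor, held 89.7% of the release channel total at 1353, 1220 and 1360 CPM, and Ryr3 was next with 5.27%. Slc12a5, the chloride extruder KCC2, held 44.1% of the chloride family (964, 1006 and 1047 CPM). Trpc1 led the TRP channels with 31.8%.

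**Figure D2:**
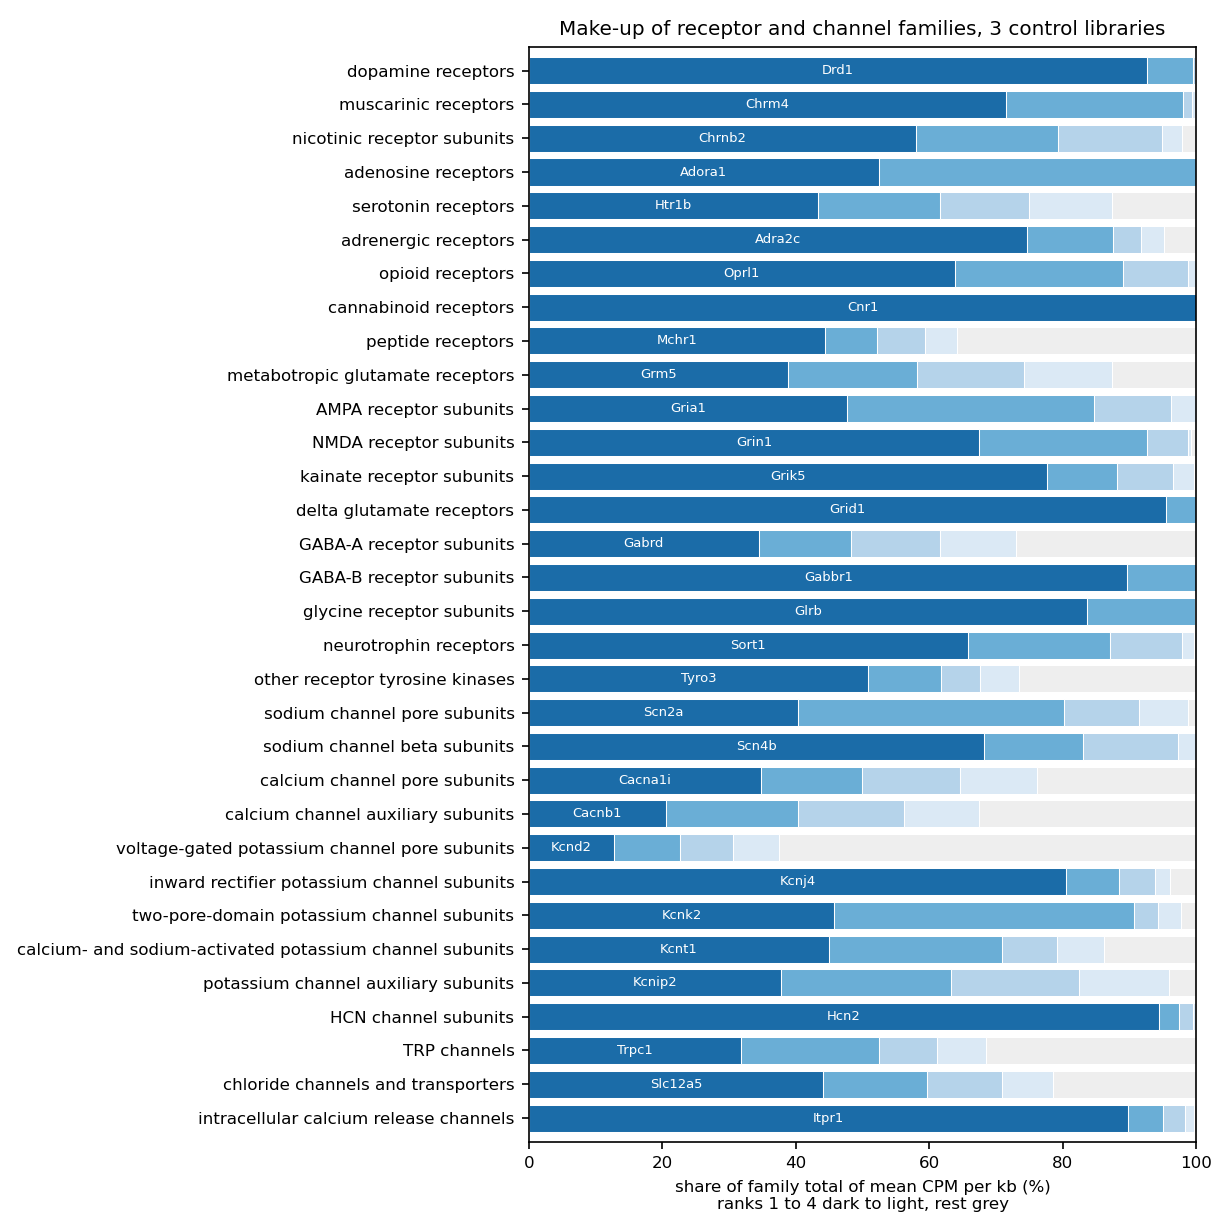
Make-up of the receptor and channel families, each bar being the family's total of mean CPM per kb over the 3 control libraries, divided into its members of rank 1 to 4 (dark to light blue) and the rest (grey), with the leading member named. Drd1, Cnr1, Grid1, Hcn2, Gabbr1 and Itpr1 held most of their families, whereas the leader Kcnd2 held 12.7% of the voltage-gated potassium channels.

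Of 50 measured neuropeptide precursors, 10 were detected, or 20% against 52.4% of all protein-coding genes. Penk, the enkephalin precursor of the indirect pathway, led with 35.1% of the family per kb, at 320, 458 and 1013 CPM. It led whichever library was left out, but by CPM without length correction Tac1 led. The per-kb ratio of Penk to Tac1 was 0.833, 1.22 and 5.02 in libraries 1 to 3. Sst, the somatostatin precursor of a striatal interneuron class, held 24.6% at 185, 137 and 232 CPM, and overlapped with both Penk and Tac1. Pdyn held 7.40% and Npy 7.16%. Npy stood at 43.8, 25.9 and 56.9 CPM and Cck at 74.0, 30.8 and 112 CPM, both lowest in library 2. The remaining detected precursors, Trh, Nts and Crh among them, stood under 5 CPM.

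The machinery that stores and cuts peptides was abundant. All 7 granins and related proteins were detected. Vgf, whose transcription neurotrophins induce, stood at 542, 930 and 904 CPM, lowest in library 1. It overlapped with Scg5, the chaperone of prohormone convertase 2, at 430, 471 and 340 CPM, and Scg5 led without library 2, without library 3, or with the longest transcript as length. Chgb held 18.9% and was steady at 648, 625 and 676 CPM. Carboxypeptidase E, coded by Cpe, held 76.8% of the processing enzymes at 1307, 1276 and 1214 CPM. Pcsk2 stood at 574, 792 and 636 CPM and far exceeded Pcsk1, at 8.79, 6.42 and 17.5 CPM. Of the neurotrophic factors 4 of 11 were detected, led by Manf (46.6, 35.6 and 51.3 CPM).

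Transcription factors were detected in 176 of 368 cases (47.8%, against 52.4% of protein-coding genes). Bcl11b, the factor Ctip2 that specifies medium spiny neurons, led the identity list with 20.1% at 966, 792 and 828 CPM. Rxrg (229, 204 and 228 CPM) held 18.2% and overlapped with it. Foxp1 (853, 737 and 718 CPM) followed with 10.6%, and led with the longest transcript as length. Dlx6 stood at 97.0, 108 and 67.1 CPM and Meis2 at 440, 497 and 433 CPM. In this list 14 of 22 members with a mean of at least 10 CPM were lowest in library 3 (31.8% of all genes), where the median member stood -0.17 from the other libraries on the log2 scale.

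Other factor families each had a leader. Thra, a thyroid hormone receptor, held 28.4% of the nuclear receptors at 687, 975 and 700.5 CPM. Klf9, itself a thyroid hormone target, held 41.8% of the Kruppel-like and Sp factors at 519, 602 and 482 CPM. Pou3f1 held 56.0% of the POU factors (185, 194 and 211 CPM) and Mef2d 70.4% of the MEF2 factors (361, 460 and 412 CPM). Egr1 held 53.5% of its family at 542, 465 and 814 CPM, and Jund 57.4% of the Fos and Jun factors at 202, 177 and 189 CPM. Egr1 was highest in library 3, whereas Jund, the least inducible of the Jun genes, was not. The LIM-only protein Lmo4 held 16.6% of the remaining homeobox and LIM list, where 74 of 116 members were at or under 3 reads in every library, and Meis2 led with no length correction. Id4 (132, 124 and 127 CPM) and Sox8 (41.6, 47.0 and 64.8 CPM) led their lists. Hey1 led in place of Id4 with the longest transcript as length, and Arnt2 with no length correction.

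**Figure D3:**
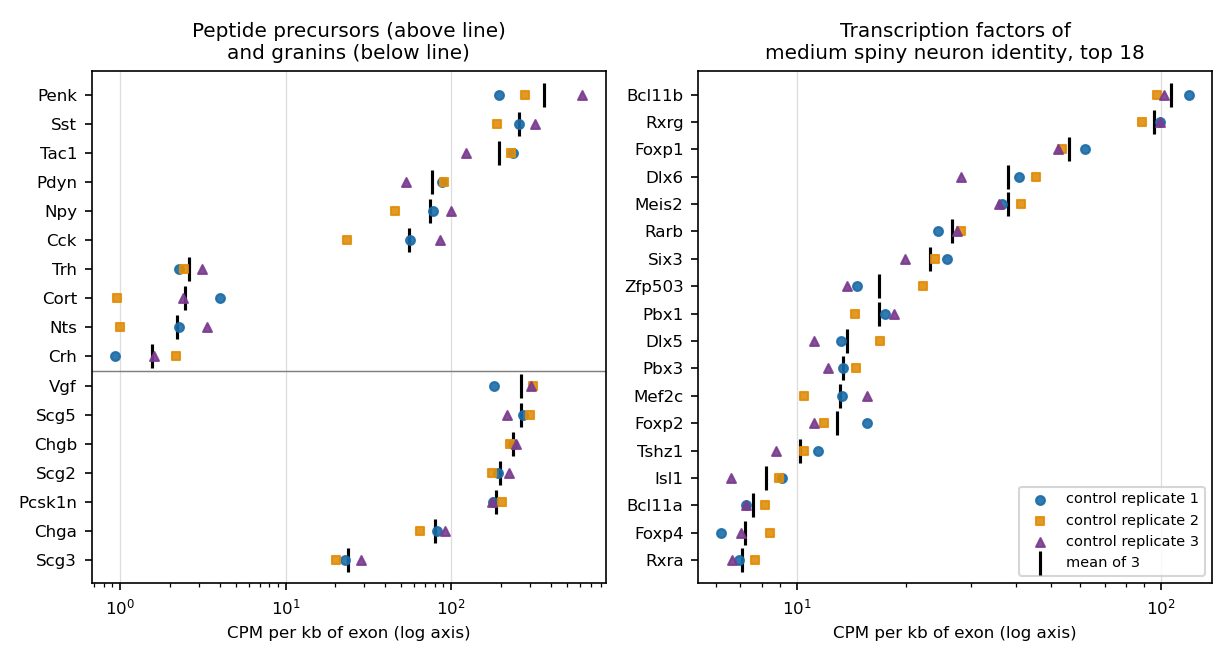
The 10 neuropeptide precursors highest per length and the granins (left) and the 18 highest transcription factors of medium spiny neuron identity (right), in CPM per kb of exon on log axes; points are the 3 control libraries and bars their mean. Penk spans 320 to 1013 CPM across libraries, whereas Chgb and Rxrg differ little.

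Dopamine and cAMP signalling genes were detected in 39 of 40 cases, against 52.4% of all protein-coding genes. They summed to 33875, 33272 and 30786 CPM. The phosphatase gene Ppp1ca was listed at 0 CPM in all 3 libraries, with the limit given above for such values. After Ppp1r1b, which held 33.2% per kb, came Ppp3ca (10.9%), the calcineurin regulatory subunit Ppp3r1 (7.81%) and Pde1b (7.25%). Gng7, the G-protein subunit that pairs with Golf, stood at 926, 986 and 1072 CPM. Rgs4 held 49.1% of the RGS family and Rgs9, which speeds the end of dopamine receptor signals, 15.9% (904, 1022 and 755 CPM). Of the calmodulin-dependent kinase list, Camkv (22.4%) and the inhibitor Camk2n1 (21.1%) overlapped, and all 13 members were detected. Camk2n1 led without library 2, Camk2b with the longest transcript as length and Camk2a with no length correction. For GABA itself, the vesicular transporter Slc32a1 stood at 586, 712 and 579 CPM, Gad1 at 797, 645 and 708 CPM and Gad2 at 424, 508 and 433 CPM.

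RNA of other cells was present at low to moderate levels. Cortical excitatory markers summed to 967 ± 306 CPM, oligodendrocyte markers to 933 ± 333 CPM, D2 neuron markers to 926 ± 572 CPM, astrocyte markers to 568 ± 44.2 CPM and striatal interneuron markers to 444 ± 201 CPM. Without library 3 these sums averaged 809 CPM for cortical, 767 for oligodendrocyte, 599 for D2, 549.9 for astrocyte and 336 CPM for interneuron markers. The D1 list summed to 8055 ± 1688 CPM, of which Ppp1r1b, expressed in both pathways, made up 5747 CPM. The other 9 members summed to 2309 ± 358 CPM, and to 2512 CPM without library 3. Vascular markers (67.2 ± 14.4 CPM), microglial markers (24.9 ± 9.63 CPM), oligodendrocyte precursor markers (14.4 ± 3.64 CPM), ependymal and choroid plexus markers (6.27 ± 1.22 CPM) and blood cell markers (2.39 ± 0.955 CPM) were lower. The cortical sum includes Foxp2, which is also on the list of medium spiny neuron factors. All sums depend on which members a list holds, and most rest on 1 or 2 abundant genes, as follows.

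The astrocyte sum came mostly from Slc4a4 (289, 288 and 249 CPM), a bicarbonate transporter, and Slc1a2 (176, 122.9 and 262 CPM), the glutamate transporter GLT-1. The defining astrocyte genes were near the detection minimum: Gfap stood at 1.01, 1.95 and 2.18 CPM, Aqp4 at 1.23, 1.58 and 1.502 CPM, and Gja1 at 2.82, 2.80 and 3.25 CPM. Slc1a3, another astrocyte glutamate transporter, stood at 6.60, 5.71 and 7.11 CPM. Of the 14 members, 12 were detected, against 52.4% of all protein-coding genes.

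Myelin genes differed from this. Mbp, myelin basic protein, stood at 189, 311 and 327 CPM. Mag, of the inner myelin membrane, stood at 14.7, 14.1 and 45.7 CPM. In this list 6 of the 7 members with a mean of at least 10 CPM were highest in library 3 (32.1% of all genes) and 6 were lowest in library 1 (31.0% of all genes). The lineage factors Sox10 (1.18, 2.999 and 3.65 CPM) and Myrf (2.44, 3.54 and 5.67 CPM) were low in all 3.

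Microglia, vessels and choroid plexus left little RNA. For microglia, Cx3cr1 stood at 3.37, 1.81 and 1.59 CPM and P2ry12 at 0.876, 0.707 and 0.613 CPM. The endothelial Pecam1 stood at 3.23, 0.594 and 1.44 CPM. Ttr, the most abundant mRNA of the choroid plexus, had at most 0.0613 CPM, under the limit of 3 reads. Slc6a3, the dopamine transporter of the midbrain neurons that innervate the striatum, was also under that limit.

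Cortical and interneuron markers were more abundant. Slc17a7, the vesicular glutamate transporter of cortical projection neurons, stood at 339, 218 and 658 CPM. Per kb it was 30.01%, 15.9% and 59.0% of the level of Slc32a1. Tbr1, a factor of deep cortical layers, stood at 63.4, 25.7 and 87.5 CPM. Of 9 cortical members with a mean of at least 10 CPM, 7 were highest in library 3 (32.1% of all genes) and 8 lowest in library 2 (37.2% of all genes). Neurod6, which was highest in library 3, reached that mean only with library 3. Tle4 was nearly constant (182, 174 and 182 CPM), and Foxp2 (255, 194 and 183 CPM) also belongs to the list of medium spiny neuron factors. For cholinergic interneurons, Chat stood at 3.39, 5.15 and 26.0 CPM and the choline transporter Slc5a7 at 3.15, 2.43 and 17.8 CPM. Lhx6, a factor of interneurons born in the medial ganglionic eminence, stood at 10.9, 7.55 and 22.8 CPM, and Pvalb at 5.09, 1.90 and 13.6 CPM. All 7 interneuron members with a mean of at least 10 CPM were highest in library 3, against 32.1% of all genes. Chat, Kit and Lhx6 among them reached that mean only with library 3, so their count there is not independent of it.

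The D2 list showed the widest spread of the neuronal marker lists. Penk, Adora2a and Drd2 are given above. Gpr6, a constitutively active receptor of the indirect pathway, stood at 13.9, 23.9 and 56.3 CPM. Sp9, a factor needed for indirect-pathway neurons, stood at 10.5, 11.1 and 21.8 CPM. All 7 members with a mean of at least 10 CPM were highest in library 3, against 32.1% of all genes, and 5 of them were at least 2-fold above both other libraries, against 0.521%. The summed list in library 3 was 2.63 times the mean of the others, and the summed D1 list was 0.732 times that of the others there, or 0.757 times without Ppp1r1b.

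**Figure D4:**
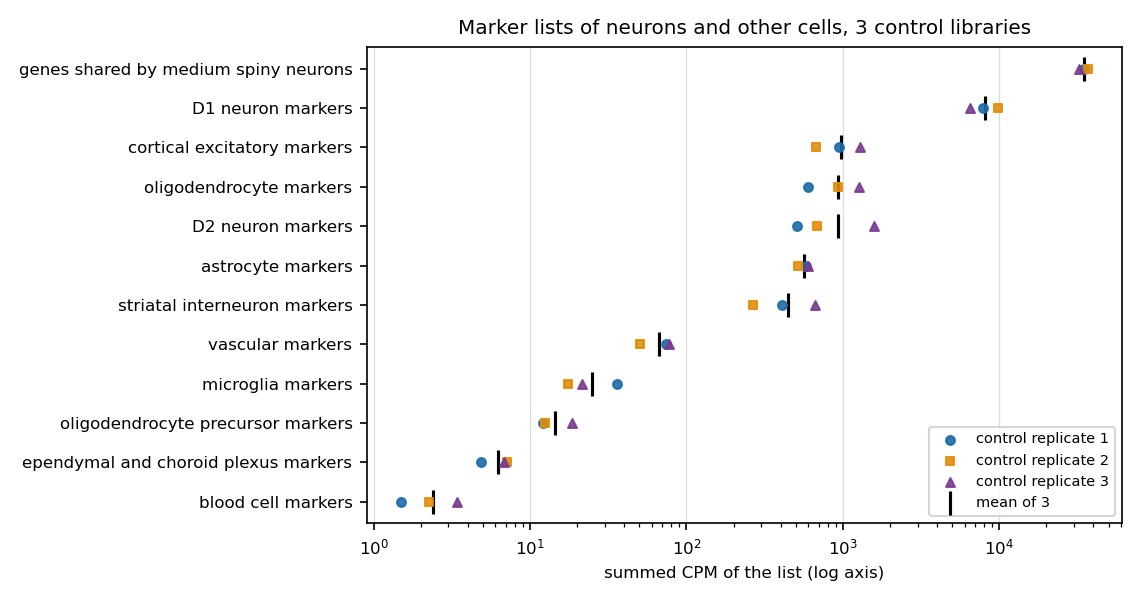
Summed CPM of each marker list on a log axis; points are the 3 control libraries and bars their mean. Library 3 is highest for D2 (1579 CPM), cortical, interneuron and oligodendrocyte markers, and lowest for D1 markers (6477 CPM). Without Ppp1r1b, which both pathways express, the D1 markers sum to 1902 CPM in library 3.

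Spread among the 3 libraries was next measured gene by gene. Over 8827 genes with a mean of at least 10 CPM the median CV was 11.5%, of which 11.1% remained after counting error was taken out. The middle range was 7.17% to 17.2% (the 25th and 75th percentiles). The median CV was 13.5% for genes of 10 to 30 CPM and 9.998% for those of 300 CPM or more, so the spread was mostly not of sampling. Among protein-coding genes of at least 50 CPM, 70 of 3922 varied no more than counting error. Among the steadiest of these were Zmynd11, a chromatin reader (183, 182 and 182 CPM), and Psmd12, a proteasome subunit (83.2, 83.2 and 83.5 CPM). Gphn, the inhibitory synapse scaffold gephyrin, was also among the 10 steadiest (111, 110.0 and 111 CPM).

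At the other end stood Arc, Wfs1, Crym, Pdzd2, Adora2a, Nr4a1 and mitochondrial mRNAs. A gene was called apart in a library where it lay at least 2-fold above, or at least 2-fold below, both others. In any library and direction 135 of 8827 genes (1.53%) were apart. Library 3 had 46 genes above (0.521% of those measured) and 5 below (0.0566%). Library 2 had 12 above (0.136%) and 65 below (0.736%), and library 1 had 9 above (0.102%) and 6 below (0.068%).

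In library 3 the largest fold above the others was that of Arc, an activity-induced regulator of AMPA receptor traffic. It stood at 58.4, 52.8 and 409 CPM, which is 7.01-fold above the higher of the others. Fos, a transcription factor of the AP-1 complex, stood at 6.68, 7.89 and 49.9 CPM. Others with large folds were Ecel1 (5.09, 5.46 and 29.7 CPM), Chat, Kit (9.50, 5.77 and 35.6 CPM), Egr2 (18.5, 16.7 and 58.1 CPM) and Mag. Of the 46 genes, 20 were on the lists of D2, cortical, interneuron, oligodendrocyte or vascular markers or of immediate early genes. The share of all measured genes on these lists was not counted, so 20 of 46 has no share to be set beside. The protein-coding genes below were Pla2g4e (13.1, 17.5 and 3.74 CPM) and Cgnl1 (17.0, 19.9 and 8.002 CPM), and the nuclear RNAs Malat1 (851, 760 and 222 CPM) and Neat1 (24.4, 17.9 and 3.005 CPM) were below as well.

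Of 27 immediate early genes 23 were detected, against 52.4% of all protein-coding genes. Of the 19 with a mean of at least 10 CPM, 15 were highest in library 3, against 32.1% of all genes. Their median CV was 46.1%, and the median member stood 0.97 higher in library 3 than in the other libraries on the log2 scale. Nr4a1, an orphan nuclear receptor, stood at 118, 168 and 401 CPM, and Nr4a3 at 32.7, 31.5 and 67.0 CPM. Fosl2 stood at 41.2, 42.2 and 102 CPM and Dusp1, a phosphatase of MAP kinases, at 20.1, 22.6 and 49.6 CPM. Arc, Fos, Egr2, Fosl2, Nr4a1, Dusp1 and Nr4a3 were the 7 of these 19 apart as high in library 3, against 0.521% of all measured genes. Fos reached a mean of 10 CPM only with library 3. Not all members followed: Gadd45b was steady (30.4, 30.1 and 25.8 CPM), and Jun (40.9, 16.6 and 39.6 CPM) and Nr4a2 (64.9, 16.1 and 51.6 CPM) were apart as low in library 2.

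The DNA before the RefSeq start of 3 of these genes is shown because all 3 were high in library 3, with Tac1, which was low there, beside them. Each run is the 250 bases upstream of the start in RefSeq's table for GRCm38.p6, 5′ to 3′ on the plus strand. Capitals mark 2 motifs, searched on both strands: the core of the cAMP response element (CRE), CGTCA or TGACG, to which CREB binds, and TATAAA. The windows are chr12:85473640-85473889 for Fos, chr15:101266596-101266845 for Nr4a1, chr5:32136222-32136471 for Fosl2 and chr6:7554811-7555060 for Tac1. In the annotation used for the levels, the genes start at 85473890 for Fos, 101254269 for Nr4a1, 32135801 for Fosl2 and 7554879 for Tac1. By those starts the Nr4a1 and Fosl2 windows lie within the gene and that of Tac1 lies partly within it.
Fos: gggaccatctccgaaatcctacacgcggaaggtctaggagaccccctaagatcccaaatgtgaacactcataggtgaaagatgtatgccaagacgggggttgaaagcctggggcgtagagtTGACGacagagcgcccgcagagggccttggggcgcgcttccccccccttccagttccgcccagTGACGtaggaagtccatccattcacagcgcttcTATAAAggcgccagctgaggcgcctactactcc
Nr4a1: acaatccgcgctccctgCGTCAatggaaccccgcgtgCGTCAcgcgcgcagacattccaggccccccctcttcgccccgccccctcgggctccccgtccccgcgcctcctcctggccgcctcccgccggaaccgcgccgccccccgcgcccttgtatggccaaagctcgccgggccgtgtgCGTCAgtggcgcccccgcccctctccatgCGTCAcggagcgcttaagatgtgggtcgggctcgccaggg
Fosl2: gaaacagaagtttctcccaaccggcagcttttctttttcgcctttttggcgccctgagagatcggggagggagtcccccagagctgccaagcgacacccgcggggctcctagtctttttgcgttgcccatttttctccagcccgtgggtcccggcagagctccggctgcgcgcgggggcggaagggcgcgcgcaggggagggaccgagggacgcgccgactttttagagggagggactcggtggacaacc
Tac1: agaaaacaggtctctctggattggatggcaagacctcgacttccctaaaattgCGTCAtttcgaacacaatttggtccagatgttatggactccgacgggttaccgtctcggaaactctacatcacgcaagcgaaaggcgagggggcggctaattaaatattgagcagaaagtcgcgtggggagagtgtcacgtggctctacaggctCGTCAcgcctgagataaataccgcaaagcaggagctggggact
The CRE core occurred 2 times in the Fos window, 4 times in that of Nr4a1, 0 times in that of Fosl2 and 2 times in that of Tac1, so genes that were higher and a gene that was lower in library 3 both held it. Only the Fos window of these held TATAAA. Among 18 immediate early genes with a single start in the table, 13 (72.2%) held the CRE core, against 17.5% of the 22862 windows of all genes with a single start. TATAAA was in 16.7% of the 18 windows and in 13.6% of all. An exact match to the serum response element core (the CArG box) was in 0 of the 18 windows and in 1.38% of all. Bases farther upstream and variants of this core were not searched, so the genes may hold such elements elsewhere. A match is a description of the letters, and its part in the levels was not tested.

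Among the genes apart as high in library 2, Wfs1, a membrane protein of the endoplasmic reticulum, stood at 166, 564 and 142 CPM. Crym, a thyroid hormone-binding crystallin, stood at 53.8, 279 and 111 CPM, and Pdzd2, a secreted PDZ protein, at 105, 366 and 138 CPM. The splicing factor Cwc22 had the largest fold of the 12 (16.01, 70.0 and 11.1 CPM), and Col6a2, Kcnab3, Coq8a and Adi1 completed the first 8 of the 10 that are protein-coding. The 65 genes apart as low included the cortical factors Tbr1, Neurod2 and Neurod6, the peptide Cck and, with the largest folds, Eln (27.4, 3.93 and 26.0 CPM), Gpx6 (36.5, 2.24 and 10.7 CPM), Osbpl1a (124, 26.8 and 114 CPM) and Kcnc2 (24.96, 7.21 and 29.25 CPM). Cortical and interneuron markers stood at a median of -1.19 and -1.15 in library 2 against the other libraries on the log2 scale, and the part of other tissue in the levels of library 2 was not tested.

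Library 1 was set apart by few genes. Cdhr1, a cadherin known from photoreceptors and olfactory bulb neurons, stood at 113, 7.30 and 15.2 CPM. The mitochondrial mRNAs mt-Nd2 (199, 49.1 and 43.2 CPM), mt-Nd4 (168, 59.6 and 45.7 CPM), mt-Nd1 (341, 148 and 103 CPM) and mt-Cytb (264, 120 and 90.8 CPM) were all highest there. Gpx6, Uggt2 and Snhg11 were the other named genes above. Below were Marcksl1 (9.11, 33.1 and 25.1 CPM), Mal, of compact myelin (9.91, 23.7 and 40.6 CPM), Foxo6 (17.3, 37.7 and 47.0 CPM) and Col9a2 (5.75, 14.7 and 11.9 CPM).

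**Figure D5:**
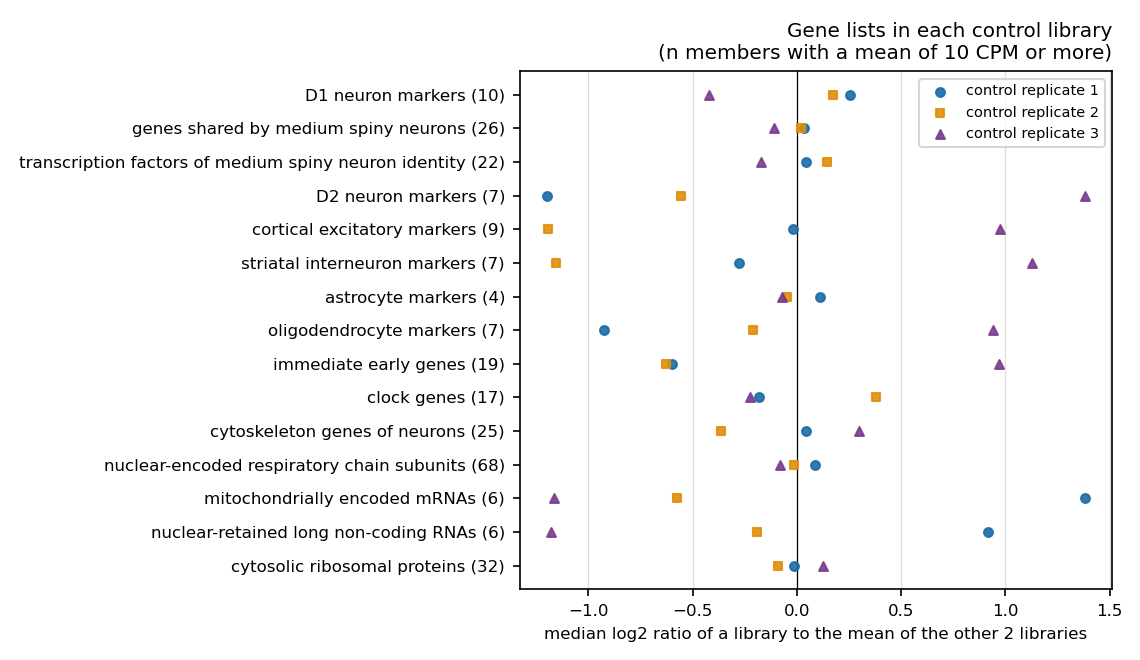
Median log2 ratio of each control library to the mean of the other libraries, for members with a mean of at least 10 CPM (their number in brackets). D2 markers stand at 1.38 and immediate early genes at 0.97 in library 3, mitochondrially encoded mRNAs at 1.38 in library 1, and genes shared by medium spiny neurons close to 0 in all 3.

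The groups that varied and those that did not can be set side by side. Median CVs were 61.4% for D2 markers, 61.2% for mitochondrially encoded mRNAs, 56.3% for interneuron markers, 52.9% for cortical markers and 46.1% for immediate early genes. They were 8.25% for nuclear-encoded respiratory chain subunits, 7.26% for ribosomal proteins, 10.7% for nuclear receptors, 11.1% for AMPA receptor subunits and 8.83% for NMDA receptor subunits, all below the 11.5% of all genes. D1 markers lay between, at 21.5%.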

How the data were processed

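RNA was precipitated with HA-coupled beads, extracted and made into libraries with the NEBNext Ultra kit, per the labels' protocols. TopHat and GRCm38 are named in the submitters' processing notes. For the read counter, annotation, strand setting and handling of reads with several matches, details were not given in the sources used here. The authors deposited 1 table per library in CPM, per the file headers, for 47729 Ensembl identifiers. In all 3 libraries 100% of values were whole multiples of 1 read within 0.1 reads, and totals were recovered from this step.

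Symbols, biotypes and exon lengths came from GENCODE M21, which matched 47310 identifiers. Detection was set at 1 CPM in all 3 libraries, and spread was measured over genes with a mean of at least 10 CPM. Precision is that of 3 libraries. No test was run, since the libraries form 1 group, so no p-value is given. The code for spread was tested on simulated data. Python 3.11.15 with numpy 2.4.6 and pandas 2.3.3 was used.

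The members, the 75 gene lists and the thresholds were chosen with earlier results of these data known. Named genes are the 4 markers, the 15 highest by CPM and 10 highest per kb, up to 4 leading members of each list, notable members at or near 0, and for each library the 8 genes farthest above and 4 farthest below the others. Further members named for their place between libraries (Tacr1, Slc5a7, Pvalb, Sp9, Bdnf, Gadd45b and the like) were chosen after their values were seen. Some genes that the rule picked are not reported here. Alternatives were other scalings, denominators, lengths, minimums and folds, and leaving out each library.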

Additional observations from a re-analysis of the deposited data

How the results depend on the processing

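No paired analysis was possible because the libraries form 1 group and no test was run. Under alternative settings, 77 of 88 levels and shares moved by less than 1 SD over the libraries. So did 6 of 7 median CVs by 1 SD of the values with a library left out, and 25 of 49 counts stayed within 1.5-fold. With 3 libraries, leaving out 1 cannot move a mean by 1 SD, so those settings passed whatever the values. The D2 sum went from 926 to 599 CPM without library 3 and still passed. The median member in place of the sum is another quantity, and every list moved under it. The 77 of 88 is therefore no measure of stability. Leaving out 1 library gave Drd1 means of 775 to 865 CPM, 12729 to 12888 detected genes, and the same leading member in 56 to 57 of 60 families. The leading member was the same in 51 of 60 with the longest transcript as length and in 43 of 60 with no length correction. Detected genes numbered 13704 at 0.5 CPM and 9888 at 5 CPM. With 1 library left out the median CV ranged from 7.68% to 10.7%, the lowest without library 2. It was 12.1% with a mean of at least 5 CPM and 10.3% with at least 50 CPM. With median-of-ratios rescaling or quantile normalization it stayed at 11.5%. The top 100 genes held 19.5% of reads when only nuclear protein-coding genes were counted. The median member in place of the sum gave 37.0 CPM for D2, 3.94 for astrocyte, 15.04 for oligodendrocyte, 1.04 for oligodendrocyte precursor, 1.25 for microglia, 1.79 for vascular, 0.0495 for ependymal and choroid plexus, 14.2 for cortical, 7.80 for interneuron and 0.320 CPM for blood cell markers.

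Counts of genes apart followed their thresholds, since these set how many genes can pass. At 1.5-fold there were 35 above and 42 below in library 1, 111 and 278 in library 2, and 213 and 39 in library 3. At 3-fold these were 3 and 0, 2 and 8, and 9 and 3. With a mean of at least 5 CPM they were 15 and 10, 26 and 100, and 86 and 17. With at least 50 CPM, 1 gene was below in library 1, 5 above and 14 below in library 2, and 10 above and 1 below in library 3. Quantile normalization gave 8 below in library 3. Median-of-ratios size factors were 0.988 to 1.011, so scaling shifted the libraries little. Depth did not limit genes of 10 CPM or more; below about 0.1 CPM, levels rest on 3 reads or fewer.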

Other observations

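Clock genes were high in library 2. Of 17 with a mean of at least 10 CPM, 14 were highest there, against 38.5% of all 8827 genes with such a mean, and the median member stood 0.38 above the other libraries on the log2 scale. Dbp, an output factor of the clock, led the list per length, and its relative Tef led it with no length correction. Dbp stood at 314, 378 and 278 CPM in libraries 1 to 3. Cry2, a repressor of the clock, stood at 210, 311 and 202 CPM, and Per1 at 160, 263 and 211 CPM. The time of day of collection is not given in the sources used here, and its part was not tested.

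Respiratory chain genes of both genomes were mostly highest in library 1 and lowest in library 3, by larger steps for the mitochondrial ones. Of 68 nuclear-encoded subunits with a mean of at least 10 CPM, 43 were highest in library 1 (29.5% of all genes) and 42 lowest in library 3 (31.8% of all genes). The median member stood 0.09 above the others in library 1. Atp5a1, of the ATP synthase, stood at 1593, 1812 and 1497 CPM and Cox4i1 at 737, 734 and 667 CPM. The 6 mitochondrially encoded mRNAs with such a mean were all highest in library 1 and all lowest in library 3, at a median of 1.38 and -1.16.

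Markers of the striatal compartments were also present. Of the 7 matrix markers 6 were detected, and Rasgrp2 was listed at 0 CPM in all 3 libraries, with the limit given above for such values. Calb1, the calcium buffer calbindin, led them at 406, 305 and 312 CPM, and Epha4 stood at 360, 385 and 390 CPM. All 10 striosome markers were detected, against 52.4% of all protein-coding genes. Nnat stood at 35.4, 39.6 and 59.5 CPM, Lypd1 at 119, 93.9 and 107 CPM and Mfge8 at 68.6, 19.6 and 36.2 CPM. The lowest were near the detection minimum, with Kcnip1 at 2.65, 2.18 and 4.75 CPM and Oprm1 at 1.42, 1.75 and 1.66 CPM. Tac1 and Pdyn are on both the striosome and the D1 list. Cytoskeleton genes of neurons were lowest in library 2 in 19 of 25 cases (37.2% of all genes) and highest in library 3 in 18 (32.1% of all genes), with Tuba1a at 573, 419 and 644 CPM and Tubb3 at 489, 393 and 556 CPM.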
